A study of Mus musculus with 8 samples.

Results

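The genes described here are 9 members of the transcriptional signature of regulatory T (Treg) cells, namely Nrp1, Gpr83, Folr4, Rgs1, Capg, Swap70, Plagl1, Penk and Cd83, which lie outside its cytokine, TNF receptor, checkpoint and TGF-beta families. They were picked by symbol from the 23997 genes of the deposited table, which holds all 9. RNA was sequenced from CD4+YFP+ cells sorted out of spleen and draining lymph nodes of C57BL/6 mice. The Bcl11b-deficient group had the genotype Bcl11b f/f Foxp3-YFP-Cre/+, and the Bcl11b-sufficient group the genotype Bcl11b f/+ Foxp3-YFP-Cre/+, with 4 samples each. Both groups thus share the YFP-Cre fusion on 1 allele of Foxp3, the X-linked gene of the Treg lineage factor, and a floxed copy of Bcl11b, which encodes a zinc finger protein that guides T cell development, so the sufficient cells are free of neither. Cre is made only where that Foxp3 allele is active, and animals with a second, plain Foxp3 allele also hold Treg cells without Cre, which the sort for YFP leaves out. In the sufficient cells Cre can act on the 1 floxed Bcl11b copy, so their level is not a wild-type reference. The labels give no age.

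Treg cells are CD4 T cells that restrain immune responses under the control of Foxp3. Beside the molecules with which they suppress, they carry genes by which they are recognised and which tune their migration and activation. Neuropilin 1, Gpr83 and folate receptor 4 are surface proteins that tell mouse Treg cells from most conventional CD4 T cells. Rgs1, Capg and Swap70 act on G protein signalling and on the actin skeleton, while Penk, Cd83 and Plagl1 encode a peptide precursor, a surface protein of activated cells and a transcription factor.

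Expression is given as FPKM, fragments scaled by transcript length and library size, so levels compare between genes per length. Library depth was approximately 2940000 to 12900000 fragments. In 3 pairs of columns (deficient 1 with 3, deficient 2 with 4, sufficient 1 with 3) the spread was only 1.16 to 1.29 times what read sampling gives, less than for the 9 remaining pairs within a group, at 1.78 to 2.45 times. Each such pair was averaged and counted once, leaving 2 deficient and 3 sufficient libraries. The labels name all 8 as separate replicates, so the averaging rests on this spread alone. The labels do not say whether these come from different mice, and p-values cover only the spread among the libraries, which may be technical. Bcl11b, the targeted gene, was lower in every deficient column (18.7 to 24.6 FPKM) than in any sufficient column (39.1 to 46.5 FPKM), with a log2 fold change of -0.95 (SE 0.14, limma adjusted p = 0.0238), and a gene total does not tell which exons remained. That call ended without sufficient replicate 2 (0.0602), sufficient replicates 1 and 3 (0.0522), deficient replicates 1 and 3 (0.0774) or deficient replicates 2 and 4 (0.133). It also ended with libraries scaled to equal total FPKM (0.0821), equal Foxp3 (0.0502) or equal T cell markers (0.0907), and with no filter on low values (0.0726).

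Each of the 9 genes had lower values in all deficient columns than in any sufficient column, as did 10.6% of the 10614 genes tested, and 17.9% did so when libraries were compared in place of columns. Nrp1, Gpr83, Folr4 and Rgs1 fell at an adjusted p under 0.05 (limma, Benjamini-Hochberg over all genes tested), while Capg, Swap70, Plagl1, Penk and Cd83 did not pass. Of the 9 genes, 4 were thus called lower and 0 higher. Of all genes tested 2.63% were called, 0.697% lower and 1.93% higher. At an unadjusted p under 0.05, 9 of 9 were lower and 0 higher, where 8.45% of all tested genes were lower. With no filter on low values, Nrp1, Gpr83, Folr4 and Rgs1 did not pass (limma adjusted p = 0.0890, 0.0990, 0.103 and 0.0950). Plagl1, with a deficient mean of 0.792 FPKM, reached the mean of 1 FPKM needed for the test only through the sufficient group. Its place among the lower genes is thus partly set by that filter. The median log2 fold change was -1.05 for the 9 genes and -0.01 for all genes tested, of which the lowest 5% lay under -0.47. In sorted bulk cells, fewer cells that express a gene and less RNA per cell cannot be told apart.

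**Figure D1:**
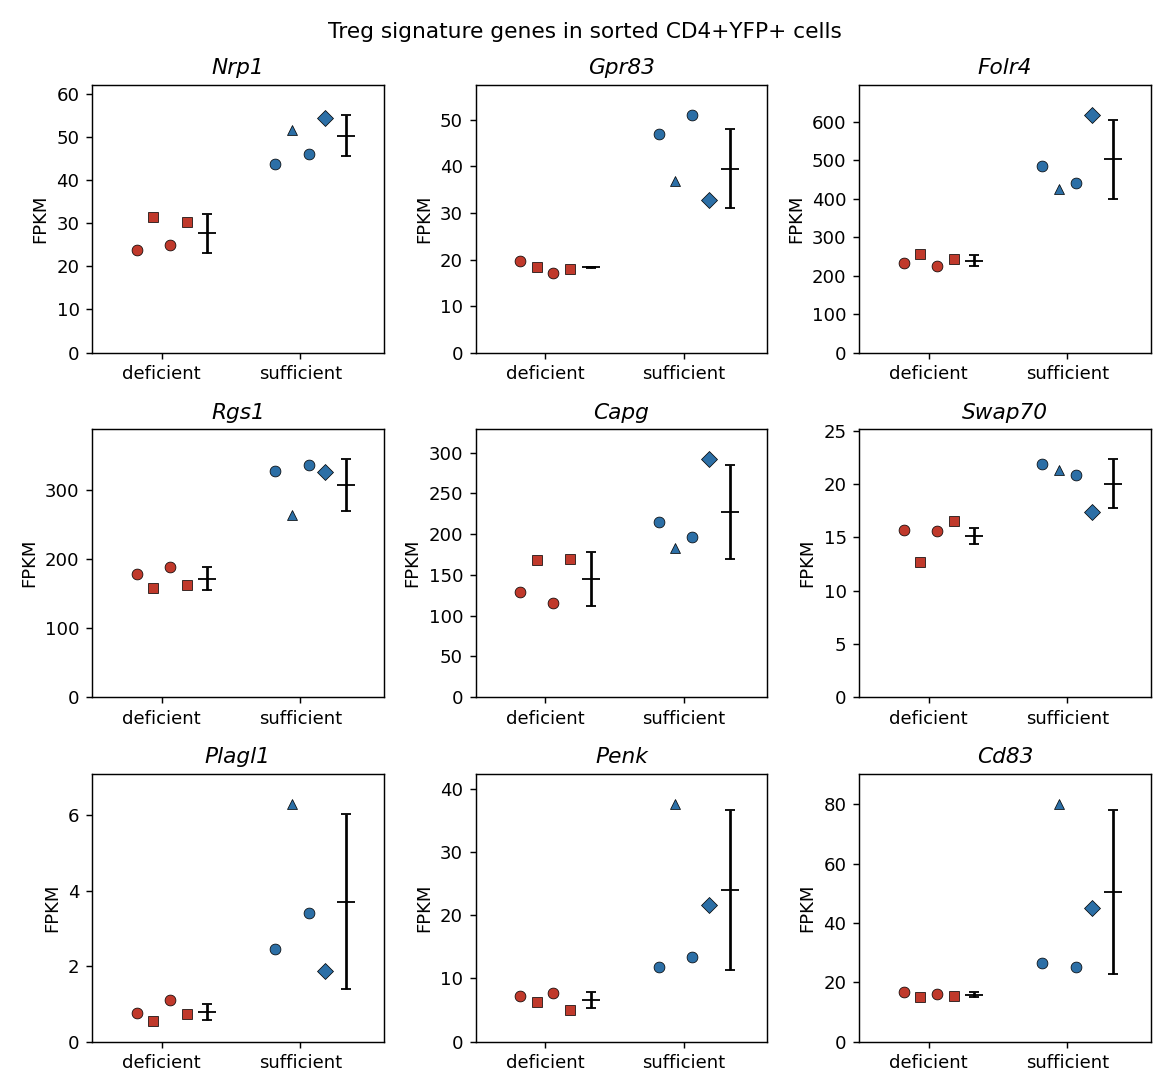
FPKM of the 9 genes (y axes, linear from 0) in the 4 Bcl11b-deficient columns (left) and the 4 Bcl11b-sufficient columns (right) of each panel. Points of the same group and shape were averaged into 1 library, and bars give the mean and SD over the 2 deficient and 3 sufficient libraries. Every deficient point lies below every sufficient point in each of the 9 panels.

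**Figure D2:**
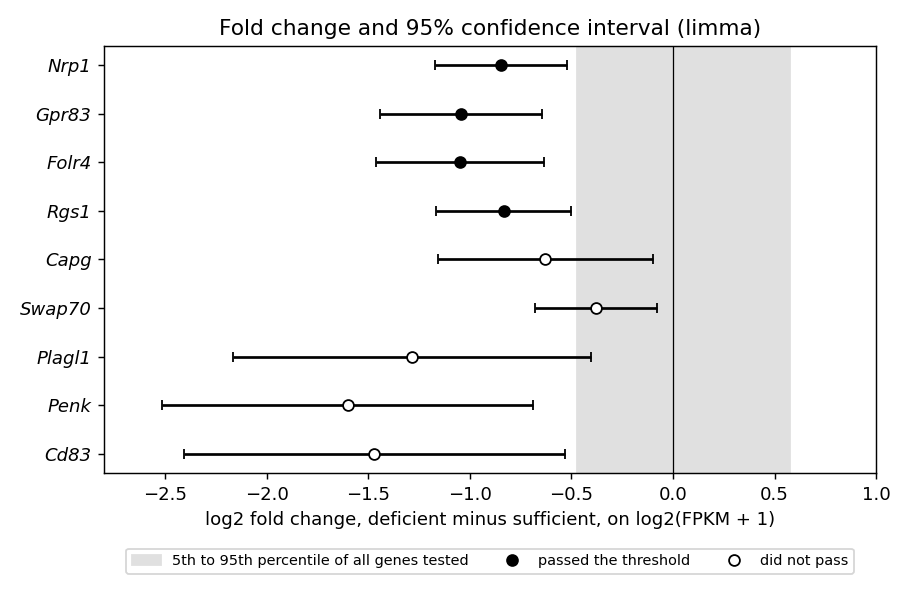
Log2 fold change, deficient minus sufficient, on log2(FPKM + 1) (x axis) of the 9 genes with its 95% confidence interval from limma, not adjusted for the number of genes. Filled points, Nrp1, Gpr83, Folr4 and Rgs1, had an adjusted p under 0.05, and the grey band spans the 5th to 95th percentile of all genes tested, from -0.47 to 0.58. Penk lies farthest to the left at -1.60 and Swap70 nearest to 0 at -0.38.

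Sequence before 1 annotated transcription start is shown for the 3 surface protein genes that fell. It was taken from a ready-made set of RefSeq stretches (GRCm38.p6), each of 250 bases before 1 annotated start. That set covers 6 of the 9 genes, namely Nrp1, Gpr83, Folr4 (as Izumo1r), Capg, Swap70 and Plagl1. Rgs1, Penk and Cd83 have no entry in the set, and whether RefSeq itself lists a start for them was not looked up. Gene totals do not tell which start was used. The stretches run 5′ to 3′ along the gene, at chr8:128358823-128359072 on the plus strand for Nrp1 and chr9:14859960-14860209 on the plus strand for Gpr83. The Nrp1 stretch lies within the span of the gene in GENCODE, between exons of a retained-intron transcript that starts farther upstream. In RefSeq the Gpr83 gene begins at 14859880, so the Gpr83 stretch lies within its RefSeq span. Overlap with exons was checked in GENCODE only. For Folr4 only chr9:14903950-14904017 on the minus strand is printed, the 68 bases outside all annotated GENCODE exons. Capitals mark a match to one of the motifs listed after the sequences.
Nrp1: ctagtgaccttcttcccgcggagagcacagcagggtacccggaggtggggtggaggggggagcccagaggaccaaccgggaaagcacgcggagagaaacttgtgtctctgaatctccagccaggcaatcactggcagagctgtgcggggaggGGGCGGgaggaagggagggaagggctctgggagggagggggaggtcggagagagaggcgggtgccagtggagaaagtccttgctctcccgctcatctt
Gpr83: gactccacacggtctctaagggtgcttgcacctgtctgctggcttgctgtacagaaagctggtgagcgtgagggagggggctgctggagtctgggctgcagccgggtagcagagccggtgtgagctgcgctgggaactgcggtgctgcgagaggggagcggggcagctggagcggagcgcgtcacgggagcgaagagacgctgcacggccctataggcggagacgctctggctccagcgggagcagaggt
Folr4: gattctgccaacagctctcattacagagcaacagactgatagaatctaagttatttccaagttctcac

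The letters searched, on both strands, were GTAAACA for forkhead factors such as Foxp3, TGACCA for BCL11A (the paralogue of Bcl11b, a motif known from human cells), TGTGGT for Runx factors, TGANTCA for AP-1, TTCNNNGAA for STAT factors, GGGCGG for the GC box and TATAAA for the TATA box. In the same order they occurred in 3.17%, 11.4%, 14.0%, 6.75%, 7.02%, 32.7% and 12.4% of 32851 RefSeq stretches of 250 bases. None of the matches overlapped another. The full stretch of Nrp1 held 1 match, the GC box, whose leftmost base is 98 bases before the start, and that of Gpr83 held 0. The full stretch of Folr4 held 1 match, the Runx letters on the opposite strand 127 bases before the start, in the part not printed. Swap70 held 4 matches, to forkhead, Runx and GC box letters, Plagl1 held 2 to the GC box, and Capg 0. Only the first 109 bases of the Plagl1 stretch precede an annotated GENCODE exon, and both of its matches lie after them. The Capg stretch begins inside an annotated exon. GC content was 64.4% for Nrp1, 66.8% for Gpr83 and 50% for Folr4, with a median of 52.4% over all stretches.

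Nrp1 encodes neuropilin 1, a co-receptor of class 3 semaphorins and of vascular endothelial growth factor that marks thymus-derived Treg cells in mice. The gene lies on chromosome 8 from 128358604 to 128503363 on the plus strand (GRCm38, GENCODE M21). Deficient replicates 1 to 4 had 23.8, 31.4, 24.95 and 30.3 FPKM of Nrp1, and sufficient replicates 1 to 4 had 43.8, 51.5, 46.1 and 54.3 FPKM. The gap between the groups was wider than the range within either. Means were 27.6 ± 4.55 FPKM for deficient (SD, n = 2) and 50.3 ± 4.83 FPKM for sufficient libraries (SD, n = 3), so that Nrp1 fell to 54.9% of the sufficient level, with a log2 fold change of -0.85 (SE 0.14, limma adjusted p = 0.0319). The call ended when a library was left out, namely deficient 1 and 3 (adjusted p = 0.198), deficient 2 and 4 (0.0912), sufficient 2 (0.0792) or sufficient 4 (0.0772).

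Among partners of neuropilin 1, no call was made. Of 19 genes of co-receptors, ligands and adaptors, 8 reached the mean of 1 FPKM needed for the test, and limma called 0 of them, with 0 at an unadjusted p under 0.05 as well. Their median log2 fold change was 0.05, within a range of -0.35 to 0.29. Sema4a, a semaphorin that binds neuropilin 1 on mouse Treg cells, had the highest level of these, at 27.6 ± 4.76 FPKM (deficient) and 22.2 ± 1.76 FPKM (sufficient; adjusted p = 0.330). The paralogue Nrp2 was low, at 1.70 ± 0.238 FPKM (deficient) and 1.49 ± 0.409 FPKM (sufficient).

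Gpr83 encodes a G protein-coupled receptor enriched in mouse Treg cells, on chromosome 9 from 14860210 to 14870789 on the plus strand. Its columns read 19.7, 18.5, 17.2 and 18.1 FPKM for deficient replicates 1 to 4, against 46.9, 36.8, 51.1 and 32.8 FPKM for sufficient replicates 1 to 4. The deficient values sat close together, and the sufficient ones spread widely above them. Gpr83 fell to 18.4 ± 0.119 FPKM in deficient libraries (SD, n = 2), against 39.5 ± 8.46 FPKM in sufficient libraries (SD, n = 3), which is -1.05 on the log2 scale (SE 0.17, limma adjusted p = 0.0319). It was not called when deficient 1 and 3 (adjusted p = 0.196), deficient 2 and 4 (0.174) or sufficient 2 (0.0715) was left out. Among 13 other G protein-coupled receptor genes of lymphocytes, all tested, 1 fell and 0 rose, with a median log2 fold change of -0.06. At an unadjusted p under 0.05, 2 were lower and 0 higher, where 8.45% of all tested genes were lower. The gene that fell was P2ry10, a receptor of lysophospholipids, at 53.7 ± 8.49 FPKM (deficient) and 115 ± 23.6 FPKM (sufficient; -1.07 on the log2 scale, SE 0.19, adjusted p = 0.0356). P2ry10 did not pass with libraries scaled to equal total FPKM (0.0759) or equal T cell markers (0.0800).

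Folr4 encodes folate receptor 4, a lipid-anchored surface protein now named Izumo1r or Juno, since on the egg it binds the sperm protein Izumo1. It does not bind folate. Of the 9 genes it had the highest level, at 232, 257, 226 and 243 FPKM in the deficient columns 1 to 4 and 485, 426, 441 and 619 FPKM in the sufficient columns 1 to 4. The lowest sufficient value lay far above the highest deficient one. Folr4 fell to 239 ± 14.6 FPKM in deficient libraries (SD, n = 2), against 503 ± 102 FPKM in sufficient libraries (SD, n = 3), a log2 fold change of -1.05 (SE 0.18, limma adjusted p = 0.0339). It was not called when deficient 1 and 3 (adjusted p = 0.222), deficient 2 and 4 (0.164), sufficient 1 and 3 (0.0627) or sufficient 2 (0.0520) was left out. Of 13 genes of folate receptors, transport and metabolism, 9 were tested and limma called 0. At an unadjusted p under 0.05, 3 were lower and 0 higher, where 8.45% of all tested genes were lower. The list had a median log2 fold change of -0.07. The receptor genes Folr1 and Folr2 and the ligand gene Izumo1 were under 1 FPKM. Shmt2, a mitochondrial enzyme of folate metabolism, was the highest of the list, at 45.5 ± 4.09 FPKM (deficient) and 42.1 ± 2.48 FPKM (sufficient; adjusted p = 0.649).

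Gpr83 and Folr4 are neighbours on chromosome 9. Folr4 runs from 14885814 to 14903949 on the minus strand, so that the 3′ ends of both genes face each other across 15024 bases, with 0 annotated RefSeq genes between them. Within 250 kb of the pair, a window chosen after the values were seen, RefSeq holds 8 other protein-coding genes, of which 3 were tested and none passed. Mre11a, a DNA repair gene, averaged 14.1 ± 1.24 FPKM (deficient) and 12.8 ± 0.926 FPKM (sufficient; log2 fold change 0.13, limma adjusted p = 0.618). Panx1, a membrane channel gene, averaged 32.5 ± 1.46 FPKM (deficient) and 38.9 ± 2.80 FPKM (sufficient; -0.25, adjusted p = 0.285). Ankrd49 had 6.08 ± 0.00581 FPKM (deficient) and 7.04 ± 0.761 FPKM (sufficient; -0.18, adjusted p = 0.536). The remaining 5 genes reached at most 0.464 FPKM in any column. Within the sufficient group the pair did not move together, since sufficient replicate 4 had the lowest Gpr83 value and the highest Folr4 value.

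Rgs1 encodes a regulator of G protein signalling that speeds GTP hydrolysis by G alpha subunits and so dampens signals of chemokine receptors. The gene lies on chromosome 1 from 144242296 to 144249242 on the minus strand. The deficient columns 1 to 4 held 178, 157, 189 and 162 FPKM, and the sufficient columns 1 to 4 held 327, 264, 337 and 326 FPKM. No sufficient value came near the deficient range. Rgs1 fell to 172 ± 16.7 FPKM in deficient libraries (SD, n = 2), against 307 ± 37.3 FPKM in sufficient libraries (SD, n = 3), with a log2 fold change of -0.83 (SE 0.14, limma adjusted p = 0.0350). The call ended when a library was left out, namely deficient 1 and 3 (adjusted p = 0.166), deficient 2 and 4 (0.212), sufficient 1 and 3 (0.0915) or sufficient 4 (0.0842).

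Other genes of this family moved in both directions. Of 11 genes of RGS proteins and G alpha subunits, 10 were tested, 1 fell and 1 rose, beside 0.697% and 1.93% of all genes tested. The list had a median log2 fold change of -0.12. Rgs10, a small RGS protein of immune cells, fell to 190 ± 2.92 FPKM in deficient libraries, against 307 ± 26.9 FPKM in sufficient libraries (-0.68, SE 0.12, limma adjusted p = 0.0358). Rgs3, another regulator of G alpha subunits, rose to 56.0 ± 1.18 FPKM in deficient libraries, against 32.98 ± 3.29 FPKM in sufficient libraries (0.75, SE 0.11, adjusted p = 0.0261). Gnai2, an inhibitory G alpha subunit on which such proteins act, had the highest level of the list, at 353 ± 0.767 FPKM (deficient) and 340 ± 4.18 FPKM (sufficient; adjusted p = 0.829). Rgs2 had wide errors, at 51.8 ± 15.5 FPKM (deficient) and 97.9 ± 43.6 FPKM (sufficient; adjusted p = 0.328). With libraries scaled to equal Foxp3, equal T cell markers or equal totals, Rgs10 did not pass (adjusted p = 0.230, 0.0715 and 0.0528).

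Capg encodes a gelsolin family protein that caps the growing ends of actin filaments, on chromosome 6 from 72544391 to 72562983 on the plus strand. Deficient columns 1 to 4 gave 129, 168, 115 and 169 FPKM, and sufficient columns 1 to 4 gave 215, 183, 196 and 292 FPKM. The columns did not overlap, but deficient replicates 2 and 4 came close to sufficient replicate 2. Means were 145 ± 33.1 FPKM for deficient (SD, n = 2) and 227 ± 57.5 FPKM for sufficient libraries (SD, n = 3), and with this spread the log2 fold change of -0.63 (SE 0.22) missed the threshold (limma adjusted p = 0.216). Leaving out the averaged deficient columns 1 and 3 gave -0.40 for Capg, and leaving out columns 2 and 4 gave -0.86. Of 13 genes of actin capping and severing, 10 were tested, 1 rose, as did 1.93% of all genes tested, and 0 fell. The list had a median log2 fold change of -0.03. The gene that rose was Gsn, gelsolin itself, at 19.9 ± 1.30 FPKM (deficient) and 13.0 ± 0.260 FPKM (sufficient; 0.57 on the log2 scale, SE 0.10, adjusted p = 0.0419). Capzb, a subunit of the general capping protein, stood at 209 ± 19.5 FPKM (deficient) and 216 ± 15.2 FPKM (sufficient; adjusted p = 0.885).

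Swap70 encodes a signalling protein, first known from B cells, that binds actin filaments and Rac, on chromosome 7 from 110221711 to 110283506 on the plus strand. Its level was 15.7, 12.7, 15.6 and 16.6 FPKM in deficient columns 1 to 4 and 21.9, 21.4, 20.9 and 17.4 FPKM in sufficient columns 1 to 4. Sufficient replicate 4 stood just above the highest deficient column. Swap70 had the smallest difference of the 9 genes, with 15.1 ± 0.728 FPKM for deficient (SD, n = 2) and 20.1 ± 2.30 FPKM for sufficient libraries (SD, n = 3), and its log2 fold change of -0.38 (SE 0.13) was not called (limma adjusted p = 0.192). The paralogue Def6 stood at 92.7 ± 17.0 FPKM (deficient) and 96.0 ± 6.09 FPKM (sufficient; -0.06, adjusted p = 0.857).

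Penk encodes proenkephalin, the precursor of the enkephalin opioid peptides, on chromosome 4 from 4133531 to 4138819 on the minus strand. The 4 deficient columns read 7.22, 6.33, 7.74 and 5.02 FPKM, and the 4 sufficient columns read 11.8, 37.6, 13.3 and 21.6 FPKM. The deficient columns were uniformly low, while the sufficient libraries differed among themselves by 2.99-fold. Means were 6.58 ± 1.27 FPKM for deficient (SD, n = 2) and 23.9 ± 12.7 FPKM for sufficient libraries (SD, n = 3), and the log2 fold change of -1.60 (SE 0.39), the most negative of the 9 genes, was not called (limma adjusted p = 0.0905). Among 10 genes of other opioid precursors, processing enzymes and receptors, 8 were under the filter and limma called 0 of the other 2, which also missed an unadjusted p of 0.05. Pomc, the precursor of beta-endorphin, stood at 1.477 ± 0.775 FPKM (deficient) and 1.38 ± 0.380 FPKM (sufficient; adjusted p = 0.960), and Cpe, a carboxypeptidase of peptide processing, at 0.814 ± 0.181 FPKM (deficient) and 1.37 ± 0.235 FPKM (sufficient; adjusted p = 0.385).

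Cd83 encodes an immunoglobulin family surface protein of mature dendritic cells and activated lymphocytes, on chromosome 13 from 43784775 to 43803132 on the plus strand. The 4 deficient columns held 16.7, 15.1, 16.1 and 15.3 FPKM, and the 4 sufficient columns held 26.4, 80.2, 25.2 and 45.1 FPKM. As with Penk, the sufficient libraries spread, here by 3.11-fold, above a narrow deficient range. Means were 15.8 ± 0.843 FPKM for deficient (SD, n = 2) and 50.4 ± 27.6 FPKM for sufficient libraries (SD, n = 3), with a log2 fold change of -1.47 (SE 0.40) that missed the threshold (limma adjusted p = 0.124). Without sufficient replicates 1 and 3 both Penk (-1.97, adjusted p = 0.0309) and Cd83 (-1.87, adjusted p = 0.0311) passed.

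Cd83 opposes the ubiquitin ligase March1 in the turnover of major histocompatibility complex (MHC) class II molecules. Of 9 genes around that process 6 were tested, 1 rose, as did 1.93% of all genes tested, and 0 fell. The list had a median log2 fold change of 1.18. At an unadjusted p under 0.05, 3 were higher and 0 lower. The gene that rose was March8, a related ubiquitin ligase, at 4.70 ± 1.05 FPKM (deficient) and 0.438 ± 0.177 FPKM (sufficient), with a log2 fold change of 1.98 (SE 0.22, limma adjusted p = 0.00982). Its sufficient mean was under the filter of 1 FPKM, so March8 was tested only through the deficient group, where it was high. H2-Aa, an MHC class II chain, stood at 25.8 ± 7.11 FPKM (deficient) and 5.21 ± 3.57 FPKM (sufficient; adjusted p = 0.0969). March1 itself was under the filter, at 1.09 ± 0.162 FPKM (deficient) and 0.148 ± 0.0602 FPKM (sufficient). Macrophages, dendritic cells and B cells express these genes too, and the part of such cells in their values was not tested. Macrophage markers summed to 409 and 776 FPKM in the deficient libraries, against 29.1 to 105 FPKM in the sufficient ones.

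Plagl1 encodes a zinc finger transcription factor, also called Zac1, from an imprinted gene on chromosome 10 from 13060504 to 13131694 on the plus strand. It had the lowest level of the 9 genes, with 0.767, 0.560, 1.117 and 0.725 FPKM in the 4 deficient columns and 2.46, 6.30, 3.42 and 1.86 FPKM in the 4 sufficient columns. Sufficient replicate 2 stood highest, as for Penk and Cd83, and the groups did not overlap. Means were 0.792 ± 0.212 FPKM for deficient (SD, n = 2) and 3.70 ± 2.32 FPKM for sufficient libraries (SD, n = 3), a log2 fold change of -1.28 (SE 0.37) that was not called (limma adjusted p = 0.143). On log2(FPKM + 1) a change at such a level is understated, and with a pseudocount of 0.1 it was -1.94 (adjusted p = 0.112). These values rest on few reads, about 10 to 68 fragments in a deficient column and 37 to 215 in a sufficient one. Of 15 genes of the PLAG family and of imprinted genes, 4 were tested and limma called 0, with 0 at an unadjusted p under 0.05. The relative Plagl2 stood at 18.1 ± 0.165 FPKM (deficient) and 21.3 ± 3.43 FPKM (sufficient). Gnas, which encodes a G alpha subunit, was the highest of the list, at 302 ± 18.5 FPKM (deficient) and 327 ± 24.1 FPKM (sufficient; adjusted p = 0.666).

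Across the 5 libraries the profiles were compared by the root mean square (RMS) difference of log2(FPKM + 1) after each gene was centred on its own mean. The points share libraries and groups, so the measure is a description. Among all pairs of the 9 genes, Penk and Cd83 were the most alike, with an RMS difference of 0.104. Each was also the nearest to the other among 6564 genes that averaged 10 FPKM or more, ahead of Dusp10, a phosphatase of stress kinases, and Vps37b. Plagl1 lay nearest to Ccr8, a chemokine receptor of activated Treg cells, at 0.0661. In Penk, Cd83, Plagl1 and Ccr8 the highest of the 5 libraries was sufficient replicate 2.

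Each gene that fell had other genes nearest to it. Nrp1 was most like Lclat1, Smpdl3a and Tnfrsf9 (RMS differences 0.0637, 0.0763 and 0.0888), of which Tnfrsf9 encodes the costimulatory receptor 4-1BB. Gpr83 was most like Tmem64, P2ry10 and 1110032F04Rik (0.0693, 0.109 and 0.110). Folr4 was most like Matk, a kinase that restrains Src family kinases, Klk8 and Sit1, an adaptor of T cell receptor signalling (0.0489, 0.0793 and 0.0827). Rgs1 was most like Mettl23, Rpl36 and Cluap1 (0.0887, 0.0887 and 0.0904). Foxp3 was among the 3 genes nearest to Swap70 (0.0574).

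**Figure D3:**
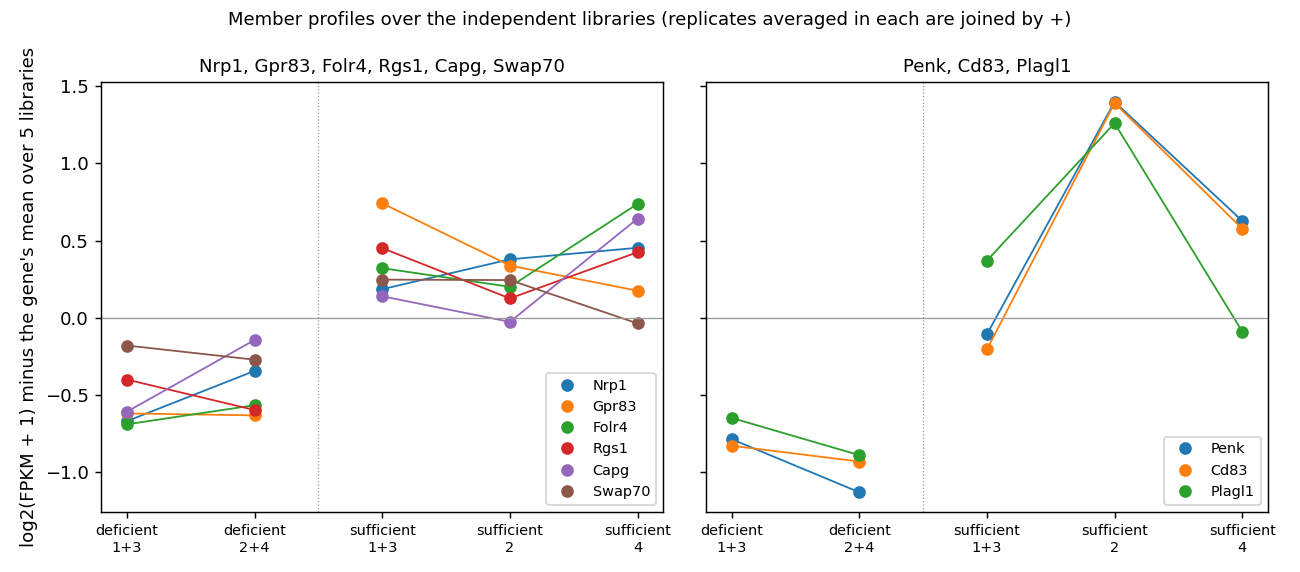
Log2(FPKM + 1) of each gene minus its mean over the 5 libraries (y axis) in the 2 deficient libraries (left of the dotted line) and the 3 sufficient libraries (right of it), where replicates joined by + were averaged. The left panel holds Nrp1, Gpr83, Folr4, Rgs1, Capg and Swap70, and the right panel Penk, Cd83 and Plagl1. In the right panel all 3 genes peak in sufficient replicate 2, where Penk and Cd83 nearly coincide.

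Foxp3 itself stood at 153 ± 0.517 FPKM (deficient) and 187 ± 18.8 FPKM (sufficient), with a log2 fold change of -0.28 that limma did not call (adjusted p = 0.285). Every deficient column (148 to 157 FPKM) was lower in Foxp3 than any sufficient column (165 to 205 FPKM), as for 10.6% of all genes tested. Taken per unit of Foxp3 within each library, 8 of the 9 genes were lower in both deficient libraries than in any sufficient one, as were 2.73% of all genes tested. Capg overlapped, at 0.799 and 1.10 times Foxp3 in deficient libraries and 0.926 to 1.77 times in sufficient ones. Folr4 averaged 1.56 ± 0.0900 times Foxp3 in deficient libraries (SD, n = 2), against 2.75 ± 0.869 times in sufficient libraries (SD, n = 3). Gpr83 stood at 0.119 and 0.121 times Foxp3 in deficient libraries, against 0.186 to 0.248 times in sufficient ones. Swap70 differed least per unit of Foxp3, at 0.0953 and 0.103 times in deficient and 0.105 to 0.108 times in sufficient libraries. As a share of the sufficient mean, the deficient mean of these ratios ran from 26.8% for Plagl1 to 92.3% for Swap70.

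Total FPKM was lower in every deficient column (474416 to 495435) than in any sufficient column (509592 to 613276). Scaling the libraries to equal Foxp3, equal summed T cell markers or equal total FPKM set the median log2 fold change of all genes tested at 0.25, 0.15 and 0.18, beside -0.01 as deposited. Higher genes then made up 94.9%, 90.8% and 91.8% of all calls, beside 73.5% as deposited. All 9 genes kept a negative log2 fold change under these scalings, but fewer passed. With equal Foxp3, Gpr83 alone of the 9 passed (-0.77, limma adjusted p = 0.0356). With equal T cell markers Folr4 alone passed (-0.87, adjusted p = 0.0128). With equal totals Folr4 (-0.84, adjusted p = 0.0177) and Rgs1 (-0.62, adjusted p = 0.0386) passed. Nrp1 passed under none of the 3, at -0.57, -0.67 and -0.64 (adjusted p = 0.117, 0.0514 and 0.0689). Swap70 came nearest to 0, at -0.11, -0.21 and -0.18 (adjusted p = 0.640, 0.576 and 0.558). Capg stood at -0.35 with equal Foxp3 and -0.42 with equal totals (adjusted p = 0.447 and 0.219), and Rgs1 at -0.55 with equal Foxp3 (adjusted p = 0.147).

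**Figure D4:**
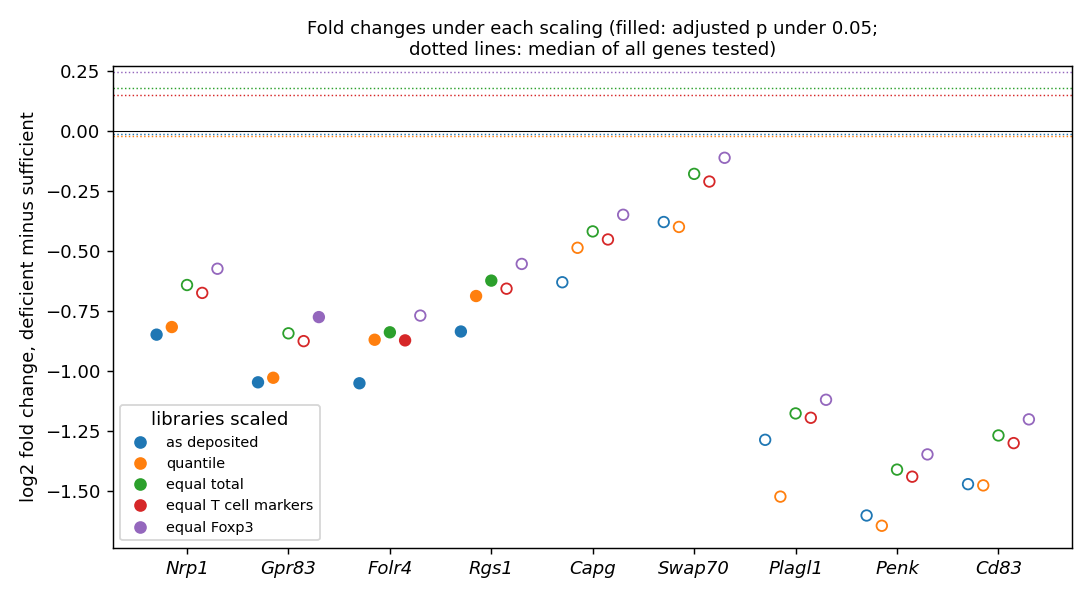
Log2 fold change, deficient minus sufficient (y axis), of the 9 genes with libraries as deposited, after quantile normalization and after scaling to equal total FPKM, equal summed T cell markers or equal Foxp3. Filled points had an adjusted p under 0.05, and dotted lines give the median of all genes tested under each scaling, up to 0.25 with equal Foxp3. All points of the 9 genes lie below 0 and below the dotted lines.

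Signature genes of Treg cells outside the 9 were also mostly lower. Of all genes tested, 0.697% were called lower and 1.93% higher, and 8.45% were lower at an unadjusted p under 0.05. Of 26 in the list, all tested, 6 fell and 0 rose by limma, with 16 lower and 2 higher at an unadjusted p under 0.05 and a median log2 fold change of -0.68. The genes that fell were Ctla4, Tnfrsf4, Tnfrsf9, Lrrc32, Itgae and Il10, which encode inhibitory, costimulatory and adhesion receptors, a TGF-beta docking protein and a cytokine, with log2 fold changes from -0.82 for Tnfrsf9 to -2.62 for Il10. Tnfrsf9 did not pass with libraries scaled to equal total FPKM, equal Foxp3 or equal T cell markers (adjusted p = 0.0671, 0.0921 and 0.0601), nor Itgae with equal Foxp3 (0.0530). Of the 26, 5 were called lower and 1 higher with equal Foxp3. With 8 columns as separate libraries and no replicate block, 15 were called lower and 1 higher. Gzmb, a cytotoxic protease, and Ecm1, a secreted matrix protein, were higher without passing, at 5.55 ± 2.35 and 203 ± 0.598 FPKM (deficient), against 3.01 ± 0.851 and 116 ± 30.2 FPKM (sufficient; adjusted p = 0.256 and 0.0926). Whether the 9 genes differ from these 26 was not tested. Over the 10 pathway lists together 11 genes were called, and this count was 0 with either deficient library left out, 8 without sufficient replicate 4 and 4 without sufficient replicate 2. Without sufficient replicate 2 the adjusted p was 0.0821 for P2ry10, 0.0520 for Rgs10, 0.0648 for Rgs3, 0.0869 for Gsn, 0.0557 for Ctla4, 0.0524 for Tnfrsf9 and 0.0917 for Itgae. Gsn (0.0876), Rgs10 (0.0859) and Itgae (0.0876) also missed the threshold without sufficient replicate 4. Leaving out single columns, Gsn missed it without deficient replicate 2 (0.0613) or 3 (0.0508) or sufficient replicate 3 (0.0558), and Itgae without sufficient replicate 1 (0.0503). With sufficient 1 and 3 left out, those that missed it were Gsn (0.0955), Rgs10 (0.108), Rgs3 (0.0652), P2ry10 (0.0536) and Itgae (0.0515).

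**Figure D5:**
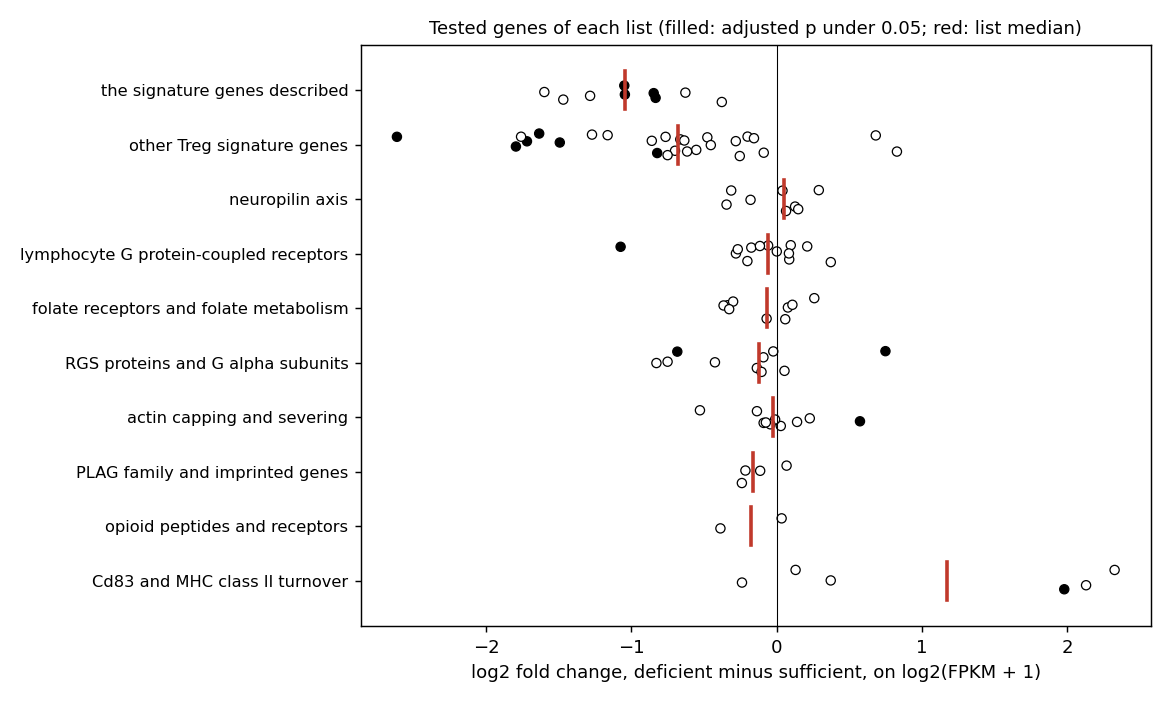
Log2 fold change, deficient minus sufficient, on log2(FPKM + 1) (x axis) of each tested gene, by list (rows), with the 9 signature genes at the top. Filled points had an adjusted p under 0.05 and red bars give the list medians. The medians of the 9 genes (-1.05) and of the other Treg signature genes (-0.68) lie left of 0, that of the Cd83 and MHC class II list (1.18) lies right of it, and the other 7 list medians shown lie between -0.18 and 0.05.

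Defining T cell markers were present in all libraries. The 8 of them summed to 2740 and 2953 FPKM in the deficient libraries and to 2962 to 3602 FPKM in the sufficient libraries, with 0 called in either direction. The 5 Treg markers, all among the 26 signature genes above, summed to 619 and 621 FPKM in deficient and 981 to 1203 FPKM in sufficient libraries. Of these, 1 was called lower and 0 higher. The 17 macrophage markers, of which 16 were tested, had 9 higher and 0 lower, and none was at 0 in all libraries of a group. Of all genes tested, 1.93% were called higher. Markers of other cells that were low in sufficient libraries could reach the filter through the deficient group, where they were high. Their counts called higher can thus be partly set by that filter. The 6 NK cell markers summed to 92.6 and 94.5 FPKM in deficient and 3.98 to 16.4 FPKM in sufficient libraries, with 3 of 5 tested higher. The 8 dendritic cell markers summed to 20.8 and 26.5 FPKM in deficient and 9.64 to 13.6 FPKM in sufficient libraries, with 1 of 3 tested higher. The 9 B cell markers summed to 10.5 and 13.6 FPKM in deficient and 10.5 to 20.9 FPKM in sufficient libraries. The 6 plasmacytoid dendritic cell markers summed to 163 and 161 FPKM in deficient libraries and to 143, 133 and 145 FPKM in sufficient libraries, where Klk1 was at 0, with 2 of 5 tested higher. Erythroid and neutrophil markers had 0 called, with sums that differed within both groups. The 4 erythroid markers summed to 19.3 and 203 FPKM in deficient replicates 1 + 3 and 2 + 4, and to 0.357, 117 and 24.9 FPKM in sufficient replicates 1 + 3, 2 and 4. The 4 neutrophil markers in the table summed to 7.17 and 30.7 FPKM in these deficient libraries and to 3.58, 35.7 and 5.44 FPKM in these sufficient libraries. Both sums were highest among the sufficient libraries in replicate 2, where Penk, Cd83 and Plagl1 also peaked, and the part of such cells in those peaks was not tested. Capg and Nrp1 are also known from macrophages, and Cd83 and Swap70 from dendritic cells and B cells.

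The part of these other cells in the lower values of the 9 genes was not tested. Between the deficient libraries the macrophage sum differed by 1.90-fold, replicates 1 and 3 over replicates 2 and 4. The same ratio, replicates 1 and 3 over replicates 2 and 4, was 1.01 for Gpr83, 0.917 for Folr4, 0.791 for Nrp1 and 1.15 for Rgs1. Over the 9 genes it ran from 0.723 for Capg to 1.47 for Plagl1. For the summed T cell markers it was 0.928. A ratio under 1 means a lower value in replicates 1 and 3.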

How the data were processed

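The authors deposited FPKM values for 23997 genes, and the unit follows from the file's name and numbers. Per the submitters' processing notes, mm10 was used with these tools: STAR 2.5.1 and cutadapt 1.12, Trim Galore 0.4.2 and FastQC, and Cuffdiff 2.2.1 with Cuffnorm 2.2.1. Settings and annotation are unknown here. Of the value columns, 8 matched a sample by title, and 8 that matched none were not used.

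Depth was estimated from low FPKM values of genes with 1 annotated transcript, which step by single fragments (fragment length taken as 200 bases). Same-group columns whose spread at 150 to 500 reads stayed under 1.5 times sampling noise were averaged. FPKM is relative, so abundant transcripts shift all other values. Testing used limma 3.58.1 (R 4.3.3) on log2(FPKM + 1), with a trended prior variance, group as covariate, two-sided p-values and Benjamini-Hochberg adjustment over the 10614 genes whose library mean was 1 FPKM or more. The threshold was 0.05. With 5 libraries an exact permutation test cannot go below p = 0.1 and was not used.

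The 9 genes, the pathway and marker lists and the averaging of columns were chosen with earlier results of these data known. Named are the 9 genes, Bcl11b, Foxp3, each list's called genes or else its highest gene, and the 3 genes nearest in profile to each called gene. Nrp2, Folr1, Folr2, Izumo1, Rgs2, Gnai2, Capzb, Def6, Cpe, H2-Aa, March1, Plagl2, Gzmb, Ecm1, the chromosomal neighbours and the genes nearest to Penk, Cd83, Plagl1 and Swap70 were named after their values were seen. The results of 1 pathway list and 1 further gene are not reported here.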

Additional observations from a re-analysis of the deposited data

How the results depend on the processing

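The log2 fold changes of the 9 genes and of Bcl11b stayed negative in every alternative run (23 each, 22 for Plagl1, which a filter of 5 FPKM removed). Over all genes, 279 calls became 182 with a pseudocount of 0.1, 99 with no filter on low values (17114 genes tested), 113 with a mean of at least 5 FPKM and 552 with equal Foxp3. Of the 9 genes, 4 calls became 0 with no filter, 2 with equal total FPKM, 1 with equal Foxp3 and 1 with equal T cell markers. In the pathway lists 11 calls became 4 with no filter. The cause was not tested. With 1 column or library left out, calls ran from 8 to 297 over all genes, from 0 to 4 among the 9 genes and from 0 to 11 in the lists. The lowest counts came from leaving out a deficient library, and the lone one that remains is then assumed to vary like the sufficient ones.

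With all 8 columns as separate libraries, calls were 1851 over all genes, 9 among the 9 genes and 30 in the lists. With the replicate block on these columns they were 1418, 8 and 30, and Swap70 did not pass (adjusted p = 0.0576). Deviations of same-numbered columns from their group means correlated at 0.0293, 0.0566, 0.126 and 0.0911. Those of columns with different numbers ran from -0.108 to 0.130 and were mostly negative. These values do not decide whether the numbers pair the samples, and the labels do not state a pairing. The p-values from 8 separate columns are too small if each averaged pair is 1 library, which the labels do not say. Depth limits Plagl1 most. Without sufficient replicate 2 the log2 fold changes of Plagl1, Penk and Cd83 were -0.91, -1.22 and -1.07.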
